A study of Mus musculus with 18 samples.

Results

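The miRNAs described here are those numbered miR-297, miR-466, miR-467 and miR-669, most of which are encoded in 1 intron of the mouse gene Sfmbt2. They were taken by name, with any letter, copy or arm suffix, and make up 69 of the 1431 mature miRNAs in each count table. Rows with the same count in every library were counted once, which left 60 signals. The study sequenced small RNA of 3 paired organs of C57BL/6 males, 8 to 12 weeks of age: eye, lung and testicle. Each side of an organ gave 3 libraries, 18 in all. The mice are described as normal, with no treatment, transgene or mutation named. The labels do not say which libraries came from the same mouse, so p-values measure the spread between these samples, which may be technical. If left and right organs came from the same mice, the 6 libraries of an organ overstate the replication.

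Sfmbt2 encodes a Polycomb-group protein, a repressor of transcription, and is an imprinted gene expressed from the paternal allele in extraembryonic tissue. One of its introns holds a large rodent-specific miRNA cluster that arose from repeated copies of a short segment, and the cluster is known for its part in growth of the placenta. A precursor hairpin gives a 5p and a 3p mature miRNA from its opposite arms. Bases 2 to 8 of a mature miRNA, the seed, guide it to its target mRNAs.

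The 4 families had 82 annotated precursors on GRCm38.p6, of which 72 lay in Sfmbt2 and 10 elsewhere. Sfmbt2 spans chr2:10370440-10595253 on the plus strand. The 72 precursors lay between positions 10466663 and 10518279, within 1 intron of 62472 bases (10461473 to 10523944). In the GENCODE M21 annotation it is intron 10 of 1 protein-coding transcript of 23 exons and intron 11 of another. They were packed into 51.6 kb, with a median gap of 209 bases between neighbours, and no precursor of another family was annotated in the gene. Of the 69 names, 58 had precursors in Sfmbt2 alone, 5 had precursors both there and elsewhere, and 6 had them elsewhere alone (miR-466i-3p, miR-466i-5p, miR-466j, miR-466k, miR-467h and miR-669n).

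Mature sequences of 5 of those 6 names, given by RefSeq for GRCm38.p6, follow with the seed in capitals. All 5 come from precursors outside Sfmbt2. Sequences of the other names were not used here, so these 5 do not describe the members in the intron.
miR-466i-3p (chr13:17747552-17747573, plus strand): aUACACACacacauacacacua
miR-466j (chr10:60960802-60960824, plus strand): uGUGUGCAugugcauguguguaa
miR-466k (chr3:85467396-85467418, plus strand): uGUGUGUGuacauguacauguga
miR-467h (chr9:115381898-115381919, plus strand): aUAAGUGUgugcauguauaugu
miR-669n (chr3:115979905-115979924, plus strand): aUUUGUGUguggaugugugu
The longest stretch in which 2 bases alternate was 11, 7, 9, 7 and 8 bases in these sequences, in the order printed. Among 1204 other miRNAs of the table with a sequence the median was 4 bases, and 0.914% had a stretch of 8 or more. No 2 of the 5 shared a seed, the 3 of the miR-466 family included. miR-466i-3p was the only one of the 5 with more than 21 counts over the 18 libraries.

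Copies of a precursor make some mature miRNAs identical or nearly so. In 7 sets, holding 16 names and 9 surplus ones, the counts were the same under each name in every library. These were miR-297a-3p with miR-297b-3p and miR-297c-3p, miR-466a-3p with miR-466e-3p, miR-466b-3p with miR-466c-3p and miR-466p-3p, miR-466b-5p with miR-466o-5p, miR-466m-5p with miR-669m-5p, miR-669a-3p with miR-669o-3p, and miR-669a-5p with miR-669p-5p. The first name stands for its set below. How reads that match several copies were assigned is not given in the sources used here, so the split between related names is uncertain.

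Eye libraries held 2451484 to 2680204 counts, lung libraries 2538402 to 2790471, and testicle libraries 952608 to 1893132. Lists of miRNAs known from each organ followed the labels, but the lists were written with earlier results of these data known. The 7 eye miRNAs summed to 273366 to 307692 CPM, counts scaled to a common library total, in the eye and at most 28274 CPM elsewhere. The 7 lung miRNAs summed to 101999 to 113016 CPM in the lung and at most 33907 CPM elsewhere. The 8 testicle miRNAs summed to 92430 to 118027 CPM in the testicle, at most 225 CPM in the lung and at most 42.8 CPM in the eye. Organs are mixtures of cells, and here fewer cells of a type and less RNA per cell cannot be told apart.

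The 60 signals together were a small part of the eye and lung libraries and a larger part of the testicle libraries. They took 0.123% ± 0.0179 of eye counts, 0.156% ± 0.0132 of lung counts and 1.41% ± 0.166 of testicle counts (SD, n = 6 libraries each). The lowest testicle library stood at 1.26% and the highest eye and lung libraries at 0.147% and 0.166%, so testicle did not overlap the other organs. The lowest lung library, at 0.131%, lay within the eye range. The mean share in testicle was 11.5 times that in eye and 9.08 times that in lung. Each family was higher in testicle than in eye on this scale, by 13.5 times for miR-297, 14.1 times for miR-466, 11.7 times for miR-467 and 8.69 times for miR-669. The miR-297 share varied widely, from 0.0035% to 0.0212% in eye and 0.0876% to 0.268% in testicle. It includes miR-297c-5p, which differed strongly between libraries of 1 organ and is described below.

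**Figure D1:**
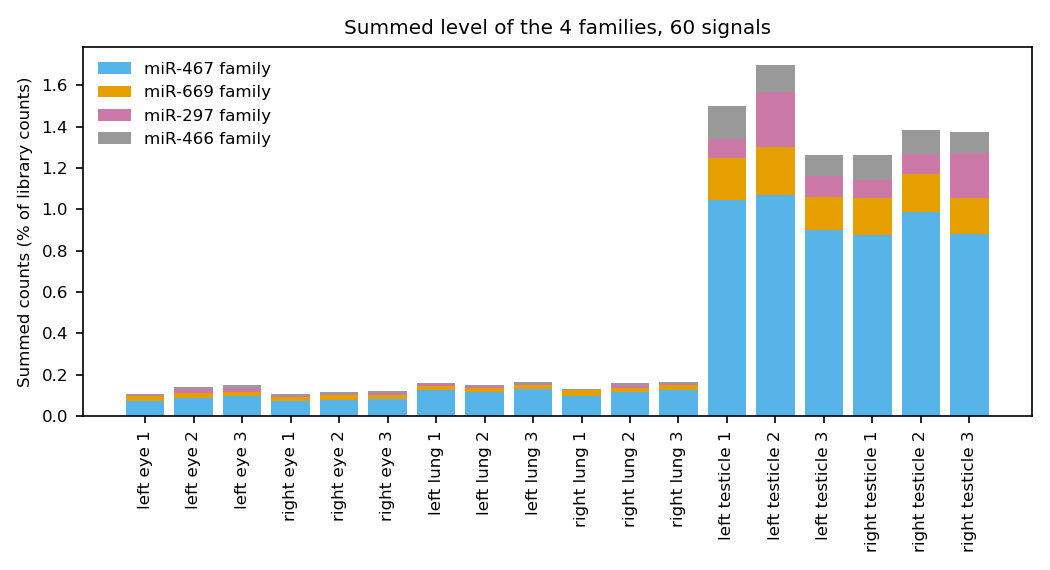
Summed counts of the 4 families as a percent of each library's counts (vertical axis), stacked by family, for the 18 libraries (horizontal axis). The 6 testicle bars reach 1.26% to 1.70%, all above the eye and lung bars, and the miR-467 family makes up most of every bar.

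The members were very unequal in level. One mature miRNA, miR-467a-5p, which has 10 precursor copies in the intron, held 43.3% of all member counts in eye, 45.5% in lung and 40.8% in testicle (means of 6 libraries). The 5 highest signals of each library held 73.6%, 80.0% and 75.0% in the same order. The 5p arms held 93.7% of member counts in eye, 96.3% in lung and 93.2% in testicle. At the other end, 13 of the 60 signals had fewer than 10 counts over all 18 libraries, though no member was at 0 in all of them. Copy number alone did not order the levels: the miR-669a-5p signal, with 14 precursors, reached 243 CPM in testicle, and miR-467e-5p, with 1 precursor, reached 2308 CPM.

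**Figure D2:**
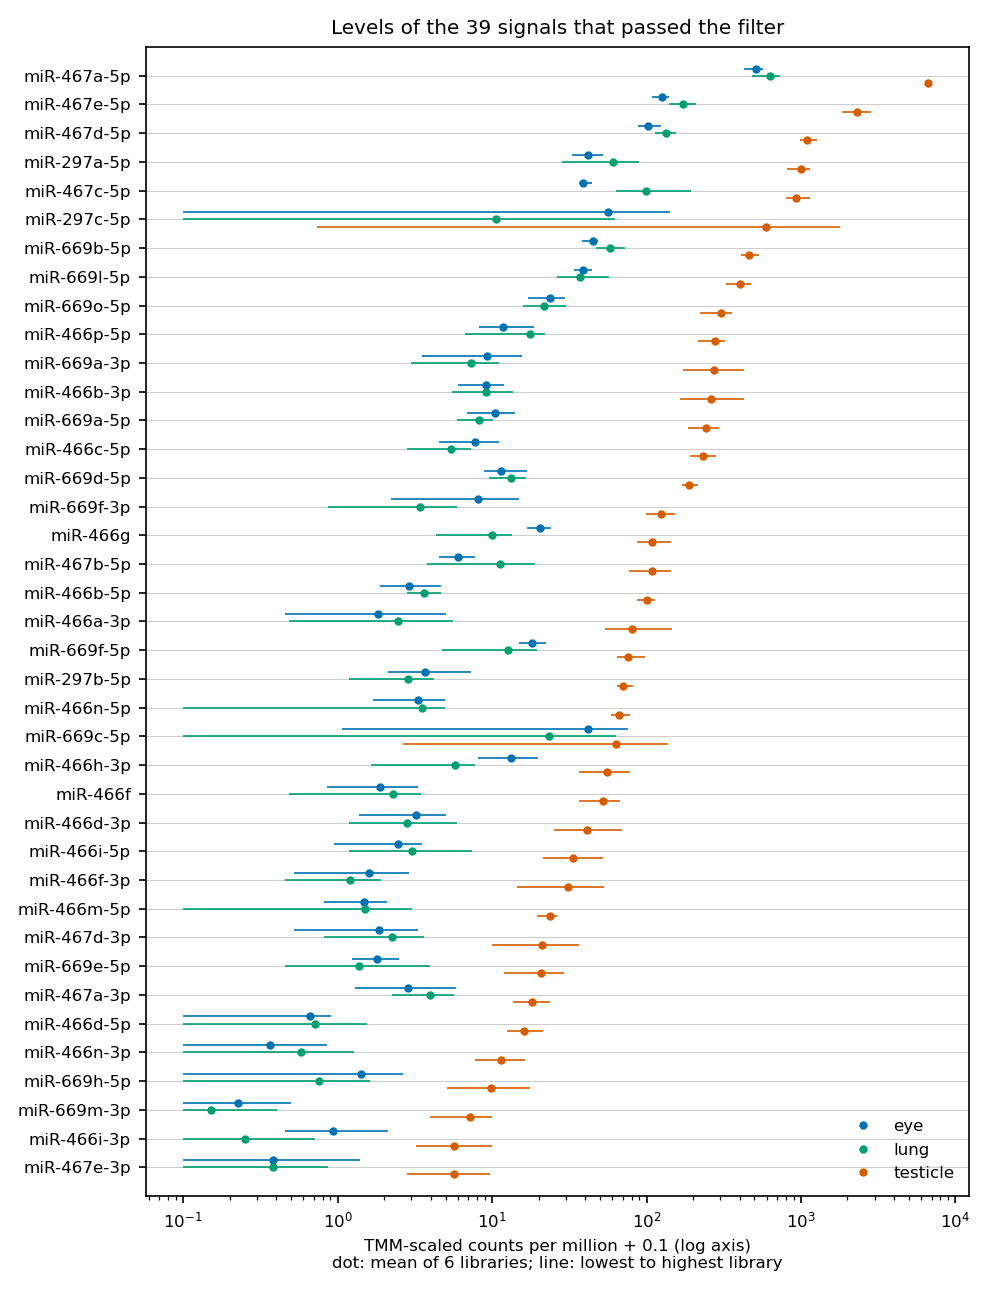
Level of each of the 39 signals that passed the filter, as TMM-scaled CPM plus 0.1 on a log axis, with the organ mean as a dot and the lowest to highest of 6 libraries as a line. Means run from 5.54 CPM (miR-467e-3p) to 6669 CPM (miR-467a-5p) in testicle, and the lines of miR-297c-5p and miR-669c-5p are far longer than those of other members at the same level.

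The miR-467 family held the 3 highest signals in all 3 organs. In CPM scaled by the trimmed mean of M values (TMM), miR-467a-5p had a lowest, median and highest value of 427, 519 and 569 in eye, 485, 640 and 735 in lung, and 6318, 6635 and 7050 in testicle. The testicle libraries lay within a narrow band far above the other organs, and eye and lung overlapped. Its log2 fold change was -3.70 ± 0.15 (SE) in eye against testicle (edgeR quasi-likelihood test, adjusted p = 2.03e-12) and -3.41 ± 0.14 in lung against testicle (edgeR adjusted p = 8.09e-12).

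The next in rank were miR-467e-5p and miR-467d-5p, whose hairpins lie 39.1 and 41.0 kb from the first precursor of the cluster. For miR-467e-5p the lowest, median and highest values were 109, 129 and 139 CPM in eye, 140, 175 and 210 in lung, and 1843, 2286 and 2825 in testicle. Every lung library exceeded every eye library, and every testicle library exceeded both. This gave a log2 fold change of -4.18 ± 0.16 in eye and -3.73 ± 0.16 in lung against testicle (edgeR adjusted p = 1.81e-12 and 7.71e-12). For miR-467d-5p the values were 88.2, 97.4 and 124 CPM in eye, 113, 134 and 155 in lung, and 987, 1083 and 1275 in testicle, with eye and lung overlapping. For this arm the log2 fold change was -3.43 ± 0.17 in eye and -3.03 ± 0.17 in lung against testicle.

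Also in this family, miR-467c-5p measured 36.2, 37.9 and 44.1 CPM in eye (lowest, median, highest), 63.6, 77.8 and 195 in lung, and 798, 885 and 1148 in testicle. The 3 organs did not overlap, in the order eye, lung, testicle, although 1 lung library, right lung 1, stood at 195 CPM with the next at 108. The log2 fold change was -4.56 ± 0.26 in eye and -3.24 ± 0.24 in lung against testicle (edgeR adjusted p = 9.91e-11 and 3.07e-09). The 3p arms of the family were scarce, with testicle means of 17.97 CPM for miR-467a-3p and 21.0 CPM for miR-467d-3p.

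Of the 4 signals of the miR-297 family, miR-297a-5p, with 3 precursors in Sfmbt2 and 1 elsewhere, had the highest mean in lung and testicle. It measured 33.0, 40.4 and 52.5 CPM in eye (lowest, median, highest), 28.2, 59.8 and 89.7 in lung, and 812, 1025 and 1138 in testicle. Testicle stood apart while eye and lung overlapped. Its log2 fold change against testicle was -4.59 ± 0.26 in eye and -4.05 ± 0.25 in lung (edgeR adjusted p = 7.59e-11 and 3.04e-10). The related miR-297b-5p had means of 3.59, 2.74 and 70.8 CPM in eye, lung and testicle. The third 5p signal, miR-297c-5p, behaved differently between libraries of 1 organ and is described below.

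In the miR-669 family, miR-669b-5p had the highest mean in all 3 organs. It measured 37.9, 46.0 and 48.8 CPM in eye and 46.9, 55.8 and 72.6 in lung (lowest, median, highest). In testicle it measured 409, 452 and 536 CPM, without overlap. Against testicle its log2 fold change was -3.35 ± 0.17 in eye and -2.99 ± 0.17 in lung (edgeR adjusted p = 3.34e-11 and 1.27e-10). A steeper difference was found for the miR-669a-3p signal, at 3.41, 8.84 and 15.6 CPM in eye, 2.88, 7.25 and 11.0 in lung, and 173, 243 and 425 in testicle. Its log2 fold change was -4.96 ± 0.41 in eye and -5.21 ± 0.42 in lung against testicle (edgeR adjusted p = 9.6e-09 and 6.45e-09).

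Both arms of miR-669f, a hairpin 0.566 kb from the first precursor of the cluster, were measured. The 5p arm had means of 18.01, 12.5 and 76.2 CPM in eye, lung and testicle, and the 3p arm 8.01, 3.32 and 124 CPM. The 5p arm was thus the higher one in eye and lung and the lower one in testicle by means. The log2 fold change in lung against testicle was -2.59 ± 0.26 for the 5p arm and -5.19 ± 0.42 for the 3p arm. The difference between the arms was tested as a share, described below, for eye against testicle only.

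The miR-466 family had the most names, 30, and 26 signals, all of low or moderate level. The highest in lung and testicle was miR-466p-5p, with means of 11.7, 17.5 and 278 CPM in eye, lung and testicle, and in eye miR-466g was highest, at 20.4 CPM. The largest fold change among signals of at least 20 CPM in eye against testicle was that of the miR-466a-3p signal, at 0.359, 1.23 and 4.94 CPM in eye, 0.386, 2.10 and 5.45 in lung, and 54.1, 67.6 and 146 in testicle (lowest, median, highest). Its log2 fold change was -5.50 ± 0.54 in eye and -5.11 ± 0.52 in lung (edgeR adjusted p = 7.72e-08 and 1.37e-07). The eye and lung values rest on 27 and 43 counts over 6 libraries each. This signal passed the filter in neither the eye nor the lung libraries taken alone, so it entered the ranking on its testicle counts.

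Other miR-466 signals named for their fold change were close behind. For miR-466c-5p the log2 fold change was -4.98 ± 0.23 in eye and -5.44 ± 0.23 in lung against testicle, from means of 7.62, 5.32 and 233 CPM in eye, lung and testicle. For the miR-466b-5p signal it was -5.15 ± 0.24 in eye and -4.81 ± 0.23 in lung, from 2.82, 3.505 and 100.5 CPM. For the miR-466b-3p signal, with 12 precursors, it was -4.86 ± 0.34 in eye and -4.85 ± 0.34 in lung, from 8.99, 9.004 and 263 CPM. Of these, miR-466b-5p passed the filter in neither the eye nor the lung libraries taken alone. Its eye and lung values rest on 45 and 64 counts.

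A few members differed less from testicle. The smallest called log2 fold changes in eye against testicle were -2.06 ± 0.33 for miR-466h-3p, -2.07 ± 0.25 for miR-669f-5p and -2.40 ± 0.24 for miR-466g (edgeR adjusted p = 2.51e-05, 1.01e-06 and 1.16e-07). For miR-466g the lowest, median and highest values were 16.9, 20.9 and 24.0 CPM in eye, 4.25, 10.2 and 13.4 in lung, and 87.2, 98.3 and 143 in testicle. The 3 organs did not overlap for miR-466g. These 3 were chosen after their values were seen. The median of the 39 signals was -4.05.

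Counted over the table, 39 of the 60 signals passed the filter on low counts and 21, with 1 to 53 counts each over all libraries, were not tested. In eye against testicle 37 of the 39 were lower in eye and 0 higher, where 39.1% of all 642 miRNAs tested were called lower in eye and 40.2% higher. In lung against testicle 38 were lower in lung and 0 higher, where 49.1% of all were called lower and 27.4% higher, 76.5% in either direction. The edgeR threshold was a Benjamini-Hochberg adjusted p of 0.05. The median log2 fold change was -4.05 in eye against testicle, beside 0.05 over all miRNAs tested, and -4.03 in lung against testicle, beside -0.90 over all. In each comparison 37 of the 39 had every testicle library above every library of the other organ. The exceptions by overlap were miR-297c-5p and miR-669c-5p. The matching count over all 642 miRNAs tested was not made, so the overlap is not shown to be particular to the members. Both comparisons share the testicle libraries, so they are not independent.

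A filter over 18 libraries can let a member through on its testicle counts alone, and 15 of the 39 passed in neither the eye nor the lung libraries taken alone. Of the 22 that passed in the eye libraries alone, 20 were lower in eye than in testicle. Of the 22 that passed in the lung libraries alone, 21 were lower in lung. The matching shares over all miRNAs that passed in the eye or in the lung libraries alone were not computed, so these counts have no background beside them. Of the 21 untested signals, 18 had more counts in testicle than in eye and lung together, and 5 had every testicle library above every eye library. These counts were not made for untested miRNAs outside the families.

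**Figure D3:**
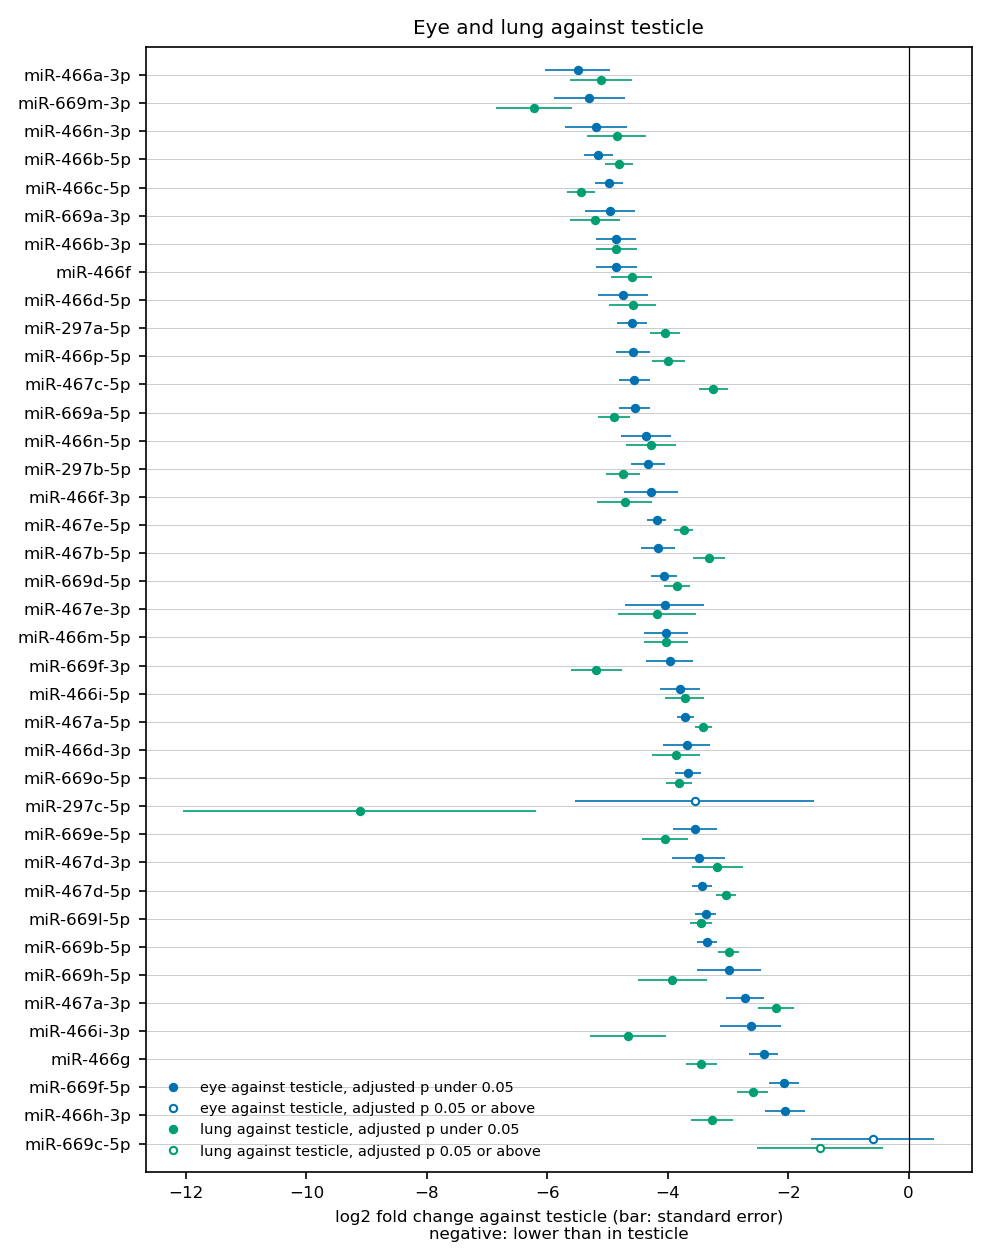
log2 fold change (horizontal axis, negative is lower than in testicle) of eye and lung against testicle for the 39 tested signals, with standard errors as bars and open symbols where the adjusted p was 0.05 or above. All symbols lie left of 0, most between -5.5 and -2, and the open symbols are miR-669c-5p in both comparisons and miR-297c-5p in eye.

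Testicle miRNAs were also counted at low levels in the lung. Their sum was highest in left lung 1 (165 CPM) and right lung 3 (225 CPM), which is 0.166% and 0.227% of the testicle mean. In the same libraries 1601 and 1655 CPM of member counts were measured. In the other 4 lung libraries testicle miRNAs summed to 25.4 to 77.2 CPM and members to 1308 to 1662 CPM. Where the testicle miRNAs in lung came from was not tested.

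Eye and lung differed for 9 of the 39 signals, 4 higher in eye and 5 lower, where 35.4% and 24.5% of all 642 miRNAs were called in those directions and 59.8% in either. Of the 20 signals that passed in the eye and in the lung libraries alone, 3 were higher and 5 lower in eye. The matching shares over all miRNAs that passed in both were not computed. The 5 lower in eye were miR-467c-5p, miR-467b-5p, miR-467e-5p, miR-467d-5p and miR-297a-5p. The 4 higher in eye were miR-466g, miR-466h-3p, miR-669f-3p and miR-466i-3p. The median of the 39 log2 fold changes was -0.00, beside 0.00 over all miRNAs.

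The largest of these differences in the direction of lung was miR-467c-5p, with a log2 fold change of -1.32 ± 0.23 in eye against lung (edgeR adjusted p = 7.5e-05). It was -0.84 ± 0.27 for miR-467b-5p (edgeR adjusted p = 0.0118), whose eye libraries measured 4.43 to 7.61 CPM and lung libraries 3.67 to 18.9 CPM, with overlap. The log2 fold change was -0.54 ± 0.22 for miR-297a-5p, -0.45 ± 0.14 for miR-467e-5p and -0.40 ± 0.15 for miR-467d-5p (edgeR adjusted p = 0.046, 0.0104 and 0.0357), and these calls were lost in 8, 1 and 4 of 32 settings. In the other direction, miR-466g had a log2 fold change of 1.04 ± 0.24 (edgeR adjusted p = 0.00117) and miR-466h-3p 1.20 ± 0.34 (edgeR adjusted p = 0.00525), the latter from 8.05 to 19.6 CPM in eye and 1.54 to 7.63 CPM in lung. All 6 eye libraries lay above all 6 lung libraries for these 2, but their calls were lost in 5 and 4 of 32 settings. The value for miR-466i-3p, 2.04 ± 0.76, rests on 13 counts in eye and 3 in lung. Its call was lost in 11 of 31 settings, and that of miR-669f-3p in 8 of 32.

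The count depended on how libraries were scaled. With left testicle 1 as the TMM reference the median of all log2 fold changes in eye against lung moved to -0.51 and the members called were 0 higher and 13 lower in eye. With the members left out of the scaling that median was -0.35 and the calls were 0 and 12. With library sizes alone, relative log expression scaling or DESeq2 they were 4 and 8. The members miR-467c-5p and miR-467b-5p, were called lower in eye in all 32 settings, with log2 fold changes of -2.10 to -1.23 and -1.70 to -0.77.

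**Figure D4:**
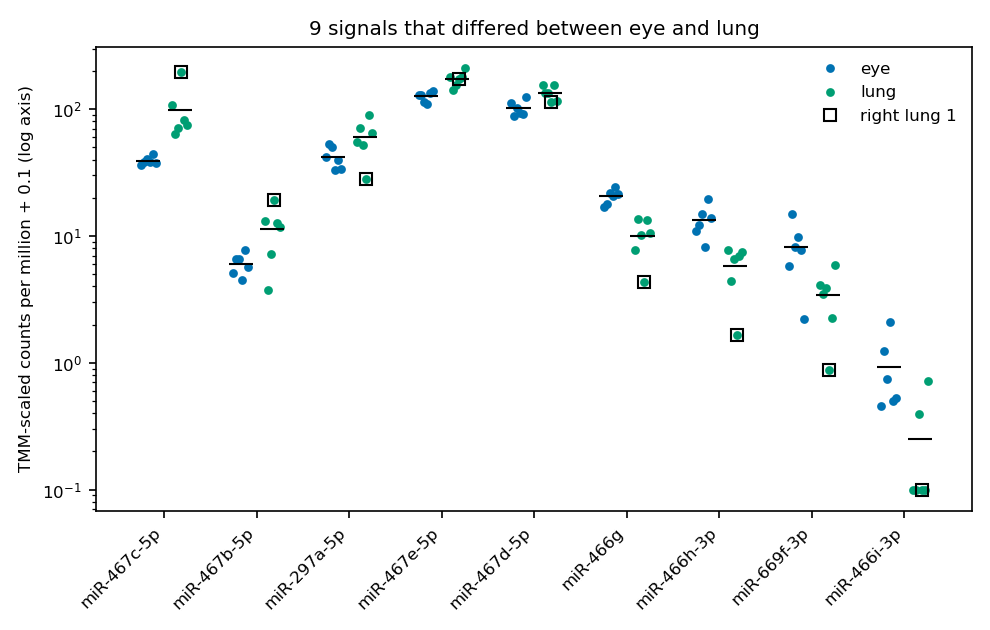
TMM-scaled CPM plus 0.1 (log axis) of the 9 signals called between eye and lung, 1 dot per library, with organ means as lines and right lung 1 boxed. For miR-467c-5p the 6 eye dots lie between 36.2 and 44.1 CPM and right lung 1 at 195 CPM, and for miR-466g and miR-466h-3p right lung 1 is the lowest lung dot.

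One lung library, right lung 1, stood at an end of the lung range for many signals. Of the 20 signals that passed in both the eye and the lung libraries alone, right lung 1 was below all 5 other lung libraries for 10 and above all of them for 6. The same count over all miRNAs was not made. Over the whole table right lung 1 also had the fewest miRNAs with a count among lung libraries, 696, with the next at 782. It was lowest for miR-297a-5p (28.2 CPM), miR-466p-5p (6.56 CPM), miR-669f-5p (4.63 CPM) and miR-466g (4.25 CPM). It was highest for miR-467c-5p (195 CPM), miR-467b-5p (18.9 CPM), miR-669l-5p (56.8 CPM) and miR-669o-5p (30.1 CPM). Without right lung 1, 2 members were higher and 9 lower in eye. The counts were also 2 and 9 without left lung 1, and 0 and 14 without right eye 2. What part right lung 1 plays in the eye and lung difference was not tested beyond leaving it out.

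A pair of 5p members, miR-297c-5p and miR-669c-5p, were present in some libraries and nearly missing from others of the same organ and side. The 1 precursor of each lies in the same stretch of the intron, 42.4 and 42.6 kb from the first precursor. For miR-297c-5p the counts were 0, 374 and 318 in left eyes 1 to 3 and 2, 1 and 215 in right eyes 1 to 3. They were 0 in 5 lung libraries and 174 in right lung 2. In testicle they were 2, 2787 and 6 on the left and 4, 1 and 2355 on the right. Of the 6 testicle libraries, 2 were high and 4 nearly empty of it.

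For miR-669c-5p the counts were 128, 129 and 3 in left eyes and 109, 189 and 85 in right eyes. In lung they were 0, 74 and 90 on the left and 163, 0 and 87 on the right, and in testicle 12, 173 and 14 on the left and 121, 4 and 181 on the right. The libraries low for this miRNA were left eye 3, left lung 1, right lung 2 and, in testicle, left 1, left 3 and right 2. In right lung 2 and left eye 3, miR-297c-5p was high where miR-669c-5p was low. In left testicle 2 and right testicle 3 both were high, so the 2 did not follow 1 pattern across libraries. By comparison, miR-297a-5p counts ranged from 79 to 156 in eye and 73 to 249 in lung.

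**Figure D5:**
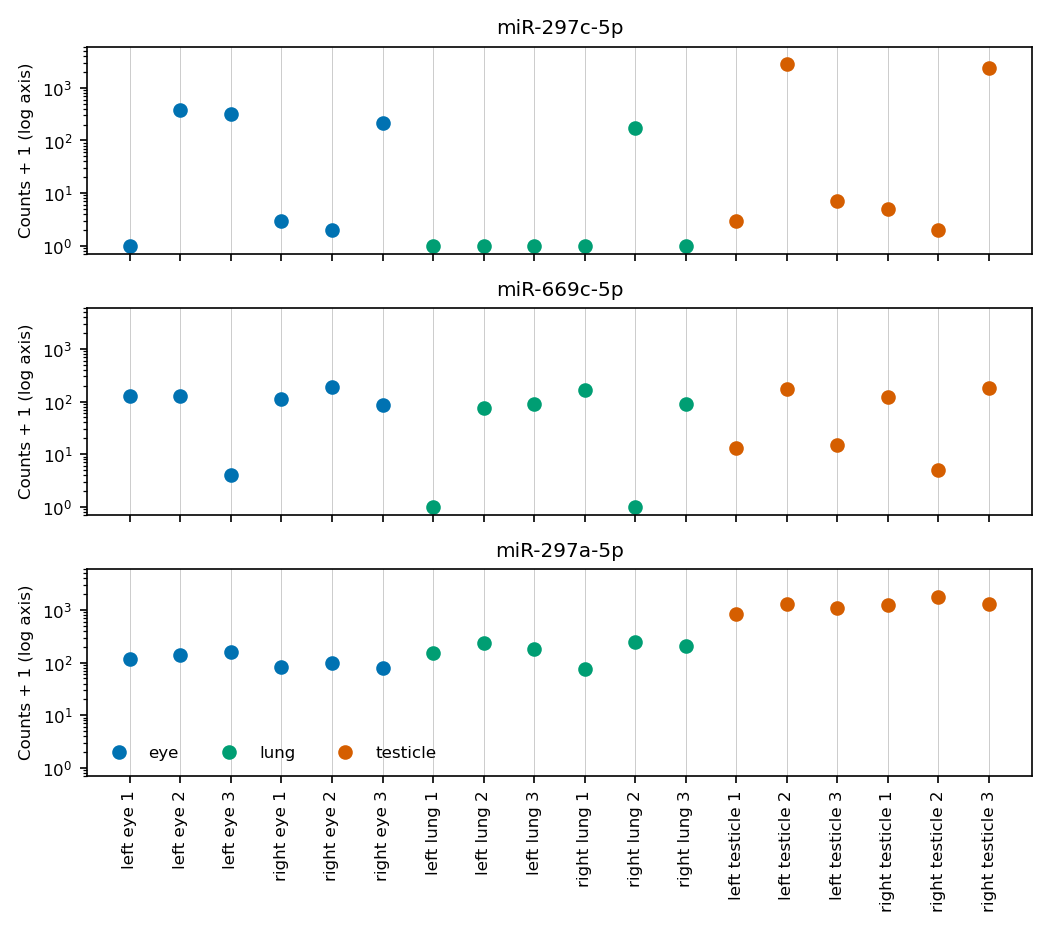
Counts plus 1 (log axis) of miR-297c-5p, miR-669c-5p and miR-297a-5p in each of the 18 libraries, coloured by organ. The first falls to 0 to 6 counts in some libraries and reaches 2787 in others, while the third stays between 73 and 249 counts in eye and lung.

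Such unevenness was rare in the table but not limited to these families. A row was called uneven where its highest count in an organ was at least 50 and its highest value was at least 20 times its lowest, as CPM with 1 count added. By this measure 6 of 364 rows (1.65%) were uneven in eye, 13 of 332 (3.92%) in lung and 13 of 345 (3.77%) in testicle. Members were 2 of 12 in eye, 2 of 12 in lung and 2 of 30 in testicle, each time miR-297c-5p and miR-669c-5p. The log2 fold change of miR-297c-5p was -3.55 ± 1.99 in eye against testicle (edgeR adjusted p = 0.114) and -9.11 ± 2.93 in lung against testicle (edgeR adjusted p = 0.011). Without left testicle 2 or right testicle 3 the eye value turned to 0.03 or 0.38, and the lung call was lost. For miR-669c-5p the values were -0.59 ± 1.02 and -1.47 ± 1.05 (edgeR adjusted p = 0.604 and 0.213). Without these 2 and miR-466h-5p, a scarce uneven member, the summed share was 0.113% in eye, 0.152% in lung and 1.36% in testicle.

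The balance of the arms was compared as the 3p share of both arms' counts for the 8 names with at least 50 counts, both arms together, in every library. An exact two-sided permutation test over 924 splits of 6 against 6 libraries was run for each pair of organs, 24 tests in all, with Benjamini-Hochberg adjustment. No test passed an adjusted p of 0.05. The smallest exact p that 6 against 6 libraries allow is 0.0022, so with 24 tests a single fully separated share could not have passed by itself. For miR-467a the 3p share was 0.536% ± 0.306 in eye, 0.618% ± 0.206 in lung and 0.270% ± 0.0632 in testicle (SD, n = 6 libraries), with an exact adjusted p of 0.052 for lung against testicle. For miR-669o it was 26.8% ± 13.3 in eye, 24.5% ± 7.20 in lung and 46.2% ± 13.01 in testicle, again with an exact adjusted p of 0.052 for lung against testicle. Its lung libraries reached at most 31.9% and its testicle libraries at least 35.0%, a full separation, which gives the smallest p the test allows. Before adjustment, 5 of the 24 exact p-values were under 0.05. The 3p counts of miR-669o are those of the set it shares with miR-669a-3p, so its share is not that of 1 hairpin.

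With the minimum lowered to 20 counts, 14 names and 38 tests, 2 tests passed. They were miR-669f in eye against testicle and miR-669o in lung against testicle. The pooled 3p share of miR-669f was 31.0% in eye, 21.5% in lung and 61.5% in testicle. Its lung share was not tested, as right lung 1 held only 2 counts of the 3p arm and 12 of the 5p arm. The balance ranged widely between names. The pooled 3p share of miR-669a was 47.5%, 47.1% and 51.8% in eye, lung and testicle. Its 3p counts are shared with miR-669o-3p and its 5p counts with miR-669p-5p, so this is not the balance of 1 name. The 3p arm held 72.2% to 76.1% of pooled counts of miR-466b in lung and eye, where both arms share their counts with other names. For miR-466h the 3p arm held 88.1% to 94.7%. It held at most 1.87% in the 3 organs for miR-467d and at most 0.618% for miR-467a.

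No member was called between left and right by the edgeR test, and neither was any other miRNA tested. In left against right, 22 signals were tested in eye, 22 in lung and 34 in testicle, with 0 called in each and 0% called over all miRNAs tested. At an unadjusted p of 0.05 the counts were 1, 0 and 0, and DESeq2 called 0 in each organ. The median size of the log2 difference was 0.17 in eye, 0.23 in lung and 0.20 in testicle. The joint edgeR test of whether the side difference varied between organs called 0 of 39 members and 0% of all, with 2 members at an unadjusted p under 0.05.

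The lowest p-values show how far the sides were apart. In the eye miR-466c-5p measured 8.25, 11.0 and 10.04 CPM on the left and 4.43, 5.61 and 6.39 CPM on the right, a log2 difference of 0.83 ± 0.28 (edgeR adjusted p = 0.872). These 6 values did not overlap between sides, and they came from 123 counts. In the lung miR-467b-5p measured 13.1, 3.67 and 7.05 CPM on the left and 18.9, 12.6 and 11.7 CPM on the right, a log2 difference of -0.95 ± 0.56 (edgeR adjusted p = 0.908). In the testicle miR-467d-3p measured 36.5, 32.4 and 12.6 CPM on the left and 19.8, 14.7 and 9.87 CPM on the right, a log2 difference of 1.09 ± 0.47 (edgeR adjusted p = 0.574). The sides overlapped in lung and in testicle for these members.

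The next lowest p-value in each organ was no closer to the threshold. In the eye the miR-669a-3p signal measured 6.82, 15.6 and 14.6 CPM on the left and 10.9, 3.60 and 3.41 CPM on the right, a log2 difference of 1.05 ± 0.49 (edgeR adjusted p = 0.982). In the lung miR-669l-5p measured 35.6, 26.3 and 31.4 CPM on the left and 56.8, 34.9 and 36.5 CPM on the right, a log2 difference of -0.57 ± 0.42 (edgeR adjusted p = 0.908). In the testicle miR-467b-5p measured 81.6, 77.2 and 103 CPM on the left and 145, 117 and 128 CPM on the right, a log2 difference of -0.38 ± 0.18 (edgeR adjusted p = 0.574). The sides overlapped for the first and second of these members and did not overlap for miR-467b-5p.

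Other miRNAs of imprinted genes gave mixed directions against testicle. Of 10 names from Mest, Nespas, Igf2 and H19, 8 were tested. Against testicle 4 were higher and 4 lower in eye, and 2 higher and 5 lower in lung. Over all 642 miRNAs tested, 40.2% were called higher and 39.1% lower in eye, and 27.4% and 49.1% in lung. The 4 lower in eye were the arms of miR-296 and miR-298, all from Nespas, so the names do not count as independent. In eye against lung 6 were higher in eye and 0 lower, beside 35.4% and 24.5% of all. miR-335-5p, from the Mest locus, had means of 168, 99.5 and 36.4 CPM in eye, lung and testicle. miR-296-5p, from the Nespas locus, had 652, 57.6 and 2601 CPM.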

How the data were processed

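The deposited values are raw counts per mature miRNA, 1 table of 1431 names for each of the 18 libraries, per the file headers and the values, which are whole numbers with unequal totals. Spin columns were used to extract RNA, and libraries followed the BGI-500 protocol, per the labels. The genome build is GRCm38.p6, per the submitters' processing notes. The aligner, the handling of reads matching several copies, and any use of strand or molecular identifiers were not given in the sources used here. Counting intervals and floors (3 counts where a count is 0) cover counting error only.

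The main test was edgeR 4.0.16 run under R 4.3.3 (TMM scaling, filterByExpr by group, quasi-likelihood test, Benjamini-Hochberg adjustment over all miRNAs tested, threshold 0.05). Organs were compared over all 18 libraries as the mean of both sides, sides within the 6 libraries of an organ, and side by organ as a joint test. SE is the fold change divided by the root of F. The 3p arm share was tested with an exact permutation test coded with numpy 2.4.6. The tests were checked on simulated counts. The members and lists were chosen with earlier results of these data known.

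Values are given for the 6 signals of highest mean CPM in each organ. They are also given for up to 5 called signals of largest fold change per organ pair and direction, from 20 CPM, and for the 2 lowest p-values between sides. Other passing signals may be named. Alternatives were other scalings, DESeq2 1.42.0, no filter, identical rows collapsed, a replicate block, fewer libraries and each library left out. The alternatives for the summed level, which leave out uneven signals or count every name, were chosen after seeing the data.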

Additional observations from a re-analysis of the deposited data

Results flagged for a closer look

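In 57 sets of 6 libraries (the summed level and 18 named signals in each organ), 4 held a library far from the other 5 by Dixon's 95% criterion, and chance gives about 1 in 20. Left eye 2 was high for miR-466a-3p, at 4.943 CPM with the next eye library at 2.01 CPM, from 13 counts. Right lung 2 was high for miR-297c-5p, at 62.68 CPM with the other 5 lung libraries at 0. Right lung 1 was high for miR-467c-5p, at 194.6 CPM with the next at 108 CPM, and for miR-669l-5p, at 56.77 CPM with the next at 36.5 CPM.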

How the results depend on the processing

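The lower level of members in eye and in lung than in testicle kept its direction and its count within 1.5 times under every alternative run, from 36 to 48 lower in eye and 37 to 48 lower in lung. The eye and lung counts did not keep theirs. Against 4 higher and 5 lower in eye, there were 8 lower with relative log expression scaling, library sizes alone, left eye 1 or left lung 1 as TMM reference, and DESeq2. There were 0 higher and 13 lower with left testicle 1 as reference, and 0 and 12 with the members left out of the scaling. There were 6 higher and 2 lower with no filter, 3 lower with only the 2 organs compared, 12 lower with the lungs left 1 and right 3 left out, and 0 and 14 with the lungs right 1 and left 2 left out. With 1 library left out, 0 to 4 were higher and 4 to 14 lower. The cause was not tested. Libraries whose loss moved either count by more than 1.5 times were right eye 2 and 3, left lung 1 and 2, right lung 1 and 2, and right testicle 1 and 3.

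With no filter, 1 member was called between sides in eye and 1 in lung, both times the uneven miR-297c-5p. In the arm share, 2 tests passed with a minimum of 20 counts, and 0 to 3 with 1 library left out, 3 without right eye 1, 2 or 3. Over single libraries left out, miR-297c-5p in eye against testicle ranged from -6.51 to 0.38 (log2), at 0.03 without left testicle 2 and 0.38 without right testicle 3, and miR-669c-5p from -0.90 to 0.31, at 0.31 without left testicle 2. With a replicate block the members called were 4 higher and 4 lower in eye against lung. The deviations of same-numbered left and right libraries from their group means correlated at -0.42 to 0.39. The value was 0.39 for lung 3, beside -0.16 with other numbers, and -0.42 for eye 2, beside 0.18. With 3 libraries per side this cannot decide whether they are pairs. The labels do not pair them, so the main test did not. The replicate block left 0 calls between sides in each organ. A count of 1 was worth 0.358 to 0.408 CPM in eye and lung and up to 1.05 CPM in testicle, which limits the 21 untested signals.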
